A study of Mus musculus with 27 samples.

Results

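The type I interferon-stimulated genes described here are a list of 36 named genes: the ligand gene Ifnb1 and 35 others. Among them are genes whose products sense, degrade or block foreign nucleic acid or pass the interferon signal on. The members were matched by symbol. All 36 were found among the 48440 gene identifiers of the bulk count tables and the 33696 features of the single cell matrices. The study took cells from MC38 tumours, which grow from a mouse colon adenocarcinoma line. Mice with a floxed Ogt gene and no Cre (WT) were compared with mice that carried floxed Ogt together with Lyz2-cre (KO); the tumour line was the same in both, and the labels used here give no ages. Ogt encodes O-GlcNAc transferase, which adds a single sugar to serines and threonines of nuclear and cytoplasmic proteins. Lyz2-cre recombines floxed genes in macrophages, monocytes and neutrophils, and since the WT mice had no Cre, the Cre allele and the loss of Ogt cannot be told apart. RNA was measured in tumour-associated macrophages (3 WT and 3 KO libraries) and, cell by cell, in CD45-positive immune cells (1 matrix per genotype, so that no test between genotypes was possible there). Nothing says that the 3 libraries of a genotype came from separate animals, so p-values measure the spread between these libraries, which may be technical.

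Type I interferons are secreted when sensors of RNA or DNA signal through IRF factors. They bind a receptor made of IFNAR1 and IFNAR2, whose kinases switch on a transcription factor complex that binds a promoter element, the interferon-stimulated response element (ISRE). Many of the genes so induced are antiviral, and in tumours they are studied in dendritic cells and macrophages, where interferon-β supports the priming of T cells. Interferon-γ, the type II interferon of T and NK cells, acts mainly through another element (GAS), and the guanylate-binding proteins are among its best known targets.

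The promoters of the members carried the ISRE often, a feature read from sequence and not from the RNA values. In the RefSeq promoter windows (GRCm38.p6, 250 bases before to 50 after the gene start), 25 of the 36 members had a window. The ISRE core, searched on either strand as GAAA, any pair of bases and GAAA again, was found in 13 of these 25 (52.0%) and in 1079 of all 27025 genes with a window (3.99%). The longer form with a C after the core was found in 10 of the 25 members and in 0.944% of all genes. The GAS element TTCNNNGAA was found in 6 of the 25 members against 9.55% of genes, and the EGR element GCGTGGGCG in none of the 25, against 0.707% of genes. The 250 bases before the start are printed for 6 members, 5′ to 3′ on the gene's strand, with the ISRE core in capitals. Isg15, Ifit1, Oas1a and Rsad2 fell in KO macrophage RNA and Oas3 and Herc6 rose, so that genes called in each direction are shown, the last of them without the core.
Isg15 (chr4:156200819-156201068, minus strand): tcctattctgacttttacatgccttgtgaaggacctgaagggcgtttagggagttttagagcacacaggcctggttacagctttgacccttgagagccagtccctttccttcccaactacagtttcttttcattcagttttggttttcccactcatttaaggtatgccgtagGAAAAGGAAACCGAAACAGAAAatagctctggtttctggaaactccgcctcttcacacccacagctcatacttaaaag
Ifit1 (chr19:34640639-34640888, plus strand): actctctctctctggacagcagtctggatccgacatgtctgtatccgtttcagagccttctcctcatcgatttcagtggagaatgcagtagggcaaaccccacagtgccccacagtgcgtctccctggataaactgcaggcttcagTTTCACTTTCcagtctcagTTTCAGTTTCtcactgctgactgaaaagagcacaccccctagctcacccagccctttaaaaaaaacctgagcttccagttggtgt
Oas1a (chr5:120907526-120907775, minus strand): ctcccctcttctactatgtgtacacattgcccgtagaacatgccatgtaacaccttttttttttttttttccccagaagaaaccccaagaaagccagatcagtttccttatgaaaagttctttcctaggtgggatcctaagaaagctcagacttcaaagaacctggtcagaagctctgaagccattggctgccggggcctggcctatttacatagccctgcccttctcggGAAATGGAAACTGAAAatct
Rsad2 (chr12:26456453-26456702, minus strand): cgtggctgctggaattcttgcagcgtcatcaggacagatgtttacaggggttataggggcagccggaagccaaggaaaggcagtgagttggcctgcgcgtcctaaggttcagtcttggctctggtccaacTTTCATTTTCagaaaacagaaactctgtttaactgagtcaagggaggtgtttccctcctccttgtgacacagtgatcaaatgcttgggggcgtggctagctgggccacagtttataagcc
Oas3 (chr5:120777660-120777909, minus strand): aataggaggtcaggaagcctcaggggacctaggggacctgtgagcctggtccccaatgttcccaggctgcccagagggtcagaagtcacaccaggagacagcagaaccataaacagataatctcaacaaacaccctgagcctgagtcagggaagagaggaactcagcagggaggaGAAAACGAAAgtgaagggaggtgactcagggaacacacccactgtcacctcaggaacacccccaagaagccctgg
Herc6 (chr6:57580742-57580991, plus strand): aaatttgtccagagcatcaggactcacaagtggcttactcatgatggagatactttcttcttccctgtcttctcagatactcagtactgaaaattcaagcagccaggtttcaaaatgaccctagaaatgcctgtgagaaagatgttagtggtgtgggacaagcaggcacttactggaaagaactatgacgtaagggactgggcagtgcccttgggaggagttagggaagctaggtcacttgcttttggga
In Isg15 3 overlapping cores made 1 unbroken block that began 78 bases before the start, and in Oas1a 2 overlapping cores began 20 bases before it. Ifit1 had 2 separate cores, 104 and 85 bases before the start, and Rsad2 had 1 at 120 bases; these read in capitals as the reverse complement. Oas3 had 1 core at 75 bases and Herc6 had none in the window. Of the members with a window, the core was found in 7 of the 9 that fell in KO macrophage RNA, in 2 of the 7 that rose and in 4 of the 9 that were not called; these counts were not tested.

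The macrophage RNA libraries held 7032540 to 32406170 counts, KO replicate 1 being the deepest. Ogt fell from 56.3 ± 6.24 to 34.7 ± 3.86 CPM (SD, n = 3; log2 fold change -0.72), and Lyz2, whose locus carries the Cre, fell from 3882 ± 53.8 to 84.0 ± 1.52 CPM. Macrophage markers were abundant in both genotypes (summed CPM of 11 markers 11822 to 12083 in WT and 10942 to 11161 in KO). Markers of other cells moved with genotype. Of 17 T and NK markers 11 were higher and 2 lower (summed CPM 529 to 538 in WT and 747 to 775 in KO), while in a list of 7 NK markers alone 2 were higher and 3 lower (42.0 to 43.4 in WT and 37.3 to 44.5 in KO). Of 9 monocyte markers 6 were higher and 1 lower (1129 to 1153 in WT and 1253 to 1291 in KO), and of 8 neutrophil markers 1 was higher and 4 lower (176 to 193 in WT and 148 to 150 in KO). Of 6 cDC1 markers 5 were higher (1435 to 1462 in WT and 1894 to 1911 in KO), and all 6 markers of migratory dendritic cells were lower (710 to 736 in WT and 320 to 328 in KO). None of the T, NK or migratory dendritic cell markers was at 0 in both genotypes. Their part in the results below was not tested, and in bulk RNA fewer cells of a type and less RNA per cell cannot be told apart.

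The 36 genes did not move together in macrophage RNA: 12 rose, 10 fell and 14 were not called in KO (edgeR quasi-likelihood test, Benjamini-Hochberg adjusted p below 0.05 over 12939 genes tested). The background was high, with 37.6% of all tested genes called, 18.7% higher and 18.9% lower. The members' median log2 fold change was 0.09, against -0.0013 over all tested genes, and the summed level was 4353, 4303 and 4407 CPM in WT and 4324, 4319 and 4342 CPM in KO. The 3 KO values lay above the 3 WT values for 15 members and below them for 10, while 11 overlapped; over all genes 46.5% lay wholly on one side, 23.3% above and 23.3% below. When libraries were scaled by their totals alone, 19 members were called higher and 9 lower, and over all genes 3392 of 5152 calls were higher, against 2422 of 4867 with the main scaling. The plot of member levels by library shows this spread to both sides.

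**Figure D1:**
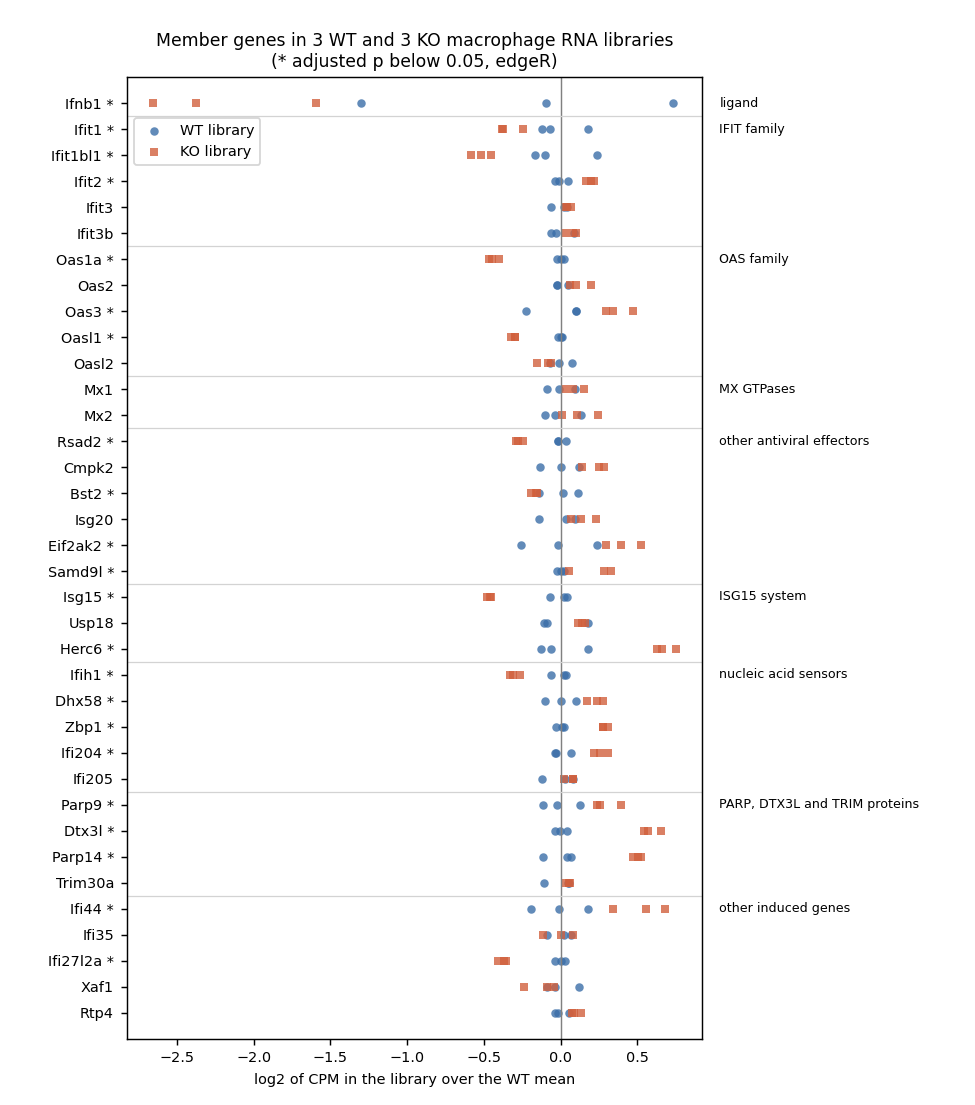
Each row is 1 member gene, each point 1 macrophage RNA library (circles WT, squares KO), and the horizontal axis is the log2 ratio of its CPM to the WT mean. Of the 36 genes, 15 have all KO points to the right of the WT points and 10 have them to the left; Ifnb1 has the widest spread.

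Ifnb1 (ENSMUSG00000048806.4, mm10 chr4:88522025-88522774), the gene of interferon-β and the only ligand among the members, was low and fell. It was measured at 2.15, 4.95 and 8.78 CPM in the WT libraries and at 0.84, 1.02 and 1.76 CPM in the KO libraries, from 26, 38 and 60 WT counts and 28, 12 and 22 KO counts. The groups did not overlap, but relative to its mean the WT spread was wider than that of any other member. The log2 fold change was -2.14 (SE 0.44, adjusted p = 3.854e-05, edgeR), and it ran from -2.56 to -1.57 as single libraries were left out, the smallest without WT replicate 3. The other 10 type I and type III ligand genes listed did not pass the filter on low counts, with group means of at most 0.518 CPM.

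The IFIT genes, whose proteins bind viral RNA lacking a self mark on its cap, split. Ifit1 fell from 53.2 ± 6.01 to 42.2 ± 2.27 CPM (log2 fold change -0.33) and Ifit1bl1 from 20.2 ± 3.17 to 14.1 ± 0.63 CPM (-0.52), while Ifit2 rose from 144 ± 4.25 to 164 ± 3.03 CPM (0.19). Ifit3 and Ifit3b, at log2 fold changes of 0.05 and 0.07, were not called. Multi-mapped reads had been left out of the counts, so the values of close paralogs such as Ifit3 and Ifit3b are uncertain; the share of such reads was not measured.

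The OAS genes encode enzymes that make 2′-5′-linked oligoadenylates, which switch on RNase L, and relatives without that activity. Oas1a (ENSMUSG00000052776.10, mm10 chr5:120896256-120907521) stood at 291, 286 and 280 CPM in WT and 216, 210 and 207 CPM in KO. The groups lay far apart relative to their spread (log2 fold change -0.44, SE 0.038, adjusted p = 1.390e-16, edgeR). Oasl1 (ENSMUSG00000041827.15, mm10 chr5:114923240-114937915), an OAS-like protein reported to limit Irf7 translation, went from 341, 345 and 347 to 275, 280 and 281 CPM. All 3 KO libraries were below all WT libraries (-0.31, SE 0.033, adjusted p = 1.871e-12). Oas3 rose from 35 ± 4.35 to 45.2 ± 2.86 CPM (0.39), and Oas2 (0.12) and Oasl2 (-0.09) were not called. How many reads these paralogs share was not measured.

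The MX genes, which encode dynamin-like GTPases that block viral replication, were not called (log2 fold changes 0.09 for Mx1 and 0.11 for Mx2). Rsad2 (ENSMUSG00000020641.15, mm10 chr12:26442753-26456452), the viperin enzyme that makes a chain-terminating nucleotide, stood at 251, 241 and 242 CPM in WT and 200, 202 and 206 CPM in KO. The groups did not overlap (-0.27, SE 0.040, adjusted p = 2.439e-08, edgeR). Its neighbour Cmpk2, a mitochondrial nucleotide kinase, was not called (0.22, adjusted p = 0.0841). Bst2, or tetherin, which holds budding virions on the cell, fell from 168 ± 14.5 to 150 ± 2.07 CPM (-0.17). That call was lost without WT replicate 3 (adjusted p = 0.0688) and with library totals alone (0.184). Eif2ak2, the RNA-activated kinase PKR, rose from 39.3 ± 6.71 to 52.2 ± 4.13 CPM (0.41), and Samd9l from 41.4 ± 0.72 to 48.4 ± 4.79 CPM (0.23). Samd9l lost its call in 4 of the 6 fits that left out a library and with DESeq2 (adjusted p = 0.0635). The exonuclease gene Isg20 was not called (0.15).

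Isg15 (ENSMUSG00000035692.6, mm10 chr4:156199424-156200818), a ubiquitin-like protein that is attached to other proteins and is also secreted, had the smallest adjusted p of the members. It stood at 347, 352 and 325 CPM in WT and at 249, 245 and 248 CPM in KO. The KO libraries agreed closely and all lay below WT (log2 fold change -0.47, SE 0.035, adjusted p = 2.303e-19, edgeR). Herc6 (ENSMUSG00000029798.11, mm10 chr6:57581000-57664632), the mouse ligase that attaches ISG15, moved the other way, from 14.2, 17.5 and 14.8 to 24.4, 23.9 and 26.0 CPM. No KO value reached down to WT (0.68, SE 0.13, adjusted p = 2.041e-05). Usp18, the protease that removes ISG15 and restrains the receptor, was not called (0.13).

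Among the nucleic acid sensors, 3 rose and 1 fell. Ifih1 (ENSMUSG00000026896.14, mm10 chr2:62595798-62646255), the RNA sensor MDA5, stood at 109, 117 and 115 CPM in WT and at 91.8, 94.5 and 90.6 CPM in KO. It was lower in all 3 KO libraries (-0.30, SE 0.059, adjusted p = 2.393e-05, edgeR). Zbp1 (ENSMUSG00000027514.14, mm10 chr2:173206612-173218923), a sensor of Z-form nucleic acid that can start necroptosis, rose from 186, 180 and 187 to 228, 223 and 223 CPM. The KO libraries all lay above WT (0.29, SE 0.042, adjusted p = 2.408e-08). Ifi204 (ENSMUSG00000073489.5, mm10 chr1:173747293-173766943), a DNA-binding protein of the PYHIN family, rose from 313, 314 and 336 to 384, 372 and 397 CPM. The groups did not overlap (0.26, SE 0.033, adjusted p = 3.643e-10). Its close relative Ifi205 was not called (0.06). Dhx58, the RIG-I-like receptor LGP2, rose from 92.6 ± 6.46 to 109 ± 4.11 CPM (0.22).

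All 3 PARP and DTX3L genes rose. Parp14 (ENSMUSG00000034422.14, mm10 chr16:35832874-35871544), an ADP-ribosyltransferase, stood at 197, 220 and 224 CPM in WT and at 307, 296 and 303 CPM in KO. Every KO library exceeded every WT library (0.51, SE 0.039, adjusted p = 8.744e-19, edgeR). Dtx3l (ENSMUSG00000049502.16, mm10 chr16:35926511-35939151), a ubiquitin ligase that works as a pair with PARP9, rose from 67.1, 65.6 and 69.4 to 97.9, 106 and 99.9 CPM. This group, too, was separate from WT (0.59, SE 0.066, adjusted p = 8.202e-12). Parp9 rose from 73.2 ± 6.22 to 89.8 ± 5.53 CPM (0.28). The gene models of Parp9 and Dtx3l overlap, as do those of Oasl1, Oas2, Herc6, Usp18, Trim30a, Dhx58, Ifi35, Rtp4 and Eif2ak2 with other genes; the counting ignored strand, so reads of such overlaps cannot be told apart. Trim30a, listed with them, was not called (0.05).

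Of the remaining members, Ifi27l2a (ENSMUSG00000079017.3, mm10 chr12:103442167-103443680), which encodes a small mitochondrial protein, fell from 263, 275 and 270 to 210, 203 and 208 CPM. The KO values were all below WT (-0.37, SE 0.039, adjusted p = 2.724e-13, edgeR). Ifi44 rose from 25.7 ± 3.31 to 37.2 ± 4.39 CPM (0.50). Ifi35 (-0.01), Xaf1 (-0.12) and Rtp4 (0.09) were not called. Per kilobase of gene model, Ifi27l2a (581 CPM per kb), Isg15 (452), Bst2 (220), Oas1a (152) and Oasl1 (132) had the highest WT levels of all members, and all 5 fell in KO.

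Beside the members, other parts of the interferon pathway were read in the same fit. The interferon-induced GTPases, which attack membranes around intracellular pathogens, all rose: 15 of 15 were called higher (median log2 fold change 0.62), against 18.7% of all tested genes. All 15 were called again with each scaling tried and each library left out in turn. The lists were chosen with earlier results of these data known, and refits of the same libraries do not check that choice. Irgm1 rose from 185 ± 3.06 to 328 ± 9.25 CPM (0.82), Iigp1 from 92.4 ± 6.04 to 201 ± 2.90 CPM (1.11), Gbp3 from 190 ± 4.56 to 309 ± 4.68 CPM (0.70) and Igtp from 106 ± 4.65 to 198 ± 6.76 CPM (0.90). The IFITM genes, which encode membrane proteins that block viral fusion, went the other way. Of these, 4 of 4 fell (median -0.47), against 18.9% of all tested genes. Ifitm1 fell from 462 ± 7.75 to 145 ± 9.32 CPM (-1.68), and Ifitm2 and Ifitm3 by 0.54 and 0.35 on the log2 scale. Ifitm6 fell by 0.40, a call lost with library totals alone and without any 1 of 4 libraries (WT replicate 2 or 3, KO replicate 1 or 2). Close paralogs among the GTPases carry the same doubt on shared reads.

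**Figure D2:**
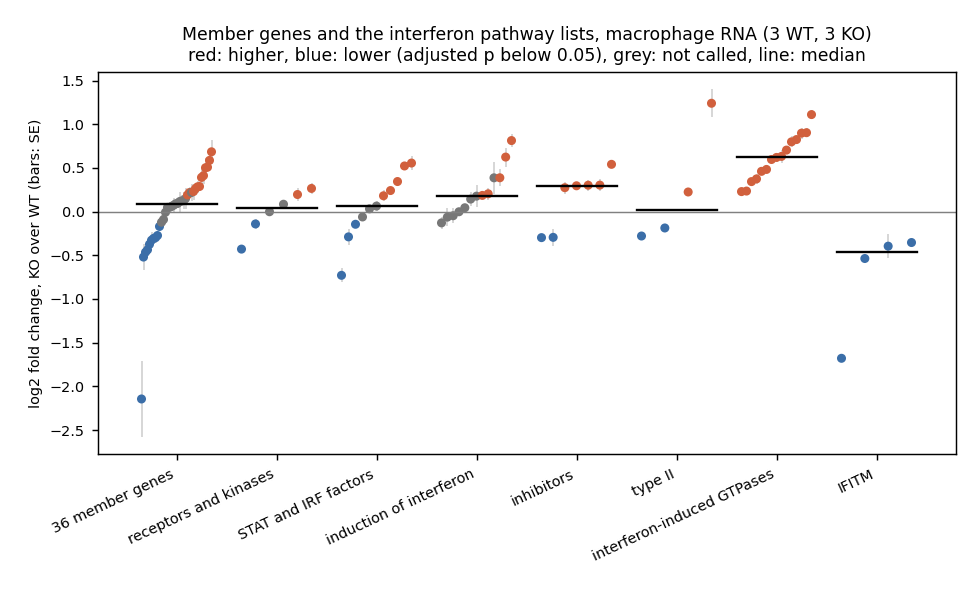
The log2 fold change of KO over WT is shown for each tested gene of the members and of 7 pathway lists, with its standard error and the list's median as a line. The members spread around a median of 0.09, the 15 GTPases all lie above 0 and the 4 IFITM genes all below it.

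The receptor chains diverged. Ifnar1 fell from 318 ± 7.65 to 237 ± 5.39 CPM (-0.43) and Ifnar2 rose from 88.5 ± 6.21 to 107 ± 2.64 CPM (0.27); of 6 receptor and kinase genes tested, 2 were higher and 2 lower. The other 2 calls were weak: Il10rb (0.20) lost its call in 5 of the 6 fits without a library and Tyk2 (-0.14) in 4 of them. Of 11 STAT and IRF genes, 5 were higher and 3 lower. Irf1, a target of interferon-γ, rose from 552 ± 11.1 to 791 ± 23.2 CPM (0.52), Irf5 by 0.34 and Irf8 by 0.24, while Irf4 fell from 74.4 ± 2.09 to 44.8 ± 2.26 CPM (-0.73). Of 13 genes that induce interferon, 5 were higher and none lower, led by the DNA receptor Tlr9 (0.81), the DNA sensor Cgas (0.62), Tlr7 (0.39) and the adaptor Myd88 (0.19). Of 7 inhibitors tested, 5 were higher, among them the nucleotide hydrolase Samhd1 (0.54), Socs1 (0.30) and Ptpn6 (0.30), and 2 lower, among them Socs3 (-0.30). Ifng itself, which macrophages make little of, rose from 8.35 ± 0.93 to 19.8 ± 0.87 CPM (1.24), next to the rise of T cell markers given above, whose part was not tested. Of the other type II genes, Ciita rose (0.22) and Ifngr1 (-0.19) and Ifngr2 (-0.28) fell.

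The single cell matrices gave 9712 WT cells (median 5579 UMIs) and 9767 KO cells (median 5807 UMIs), with 23 cell barcodes in both. Clusters were made without the members and the other listed interferon genes, and named from cell type markers. Those that did not meet every naming rule keep a number. Genes outside these lists could still shape the clusters, and Cxcl11 was among the leading genes of cluster 1. How far such genes did so was not tested. Levels are UMIs summed over a class and given as CPM, and intervals are exact 95% Poisson intervals or exact intervals of a ratio, which cover counting error only.

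The members' level was highest in myeloid classes. Among the 13 classes with at least 50 cells in each genotype, the summed WT level of the 36 genes was highest in monocyte-like cells (10965 CPM, interval 10857 to 11074) and neutrophil-like cells (10774, 10614 to 10935), whose intervals overlapped. Non-classical monocyte-like (8101), macrophage-like (7559) and regulatory T-like cells (7098) followed, each apart from its neighbours. Levels of 5606 CPM were found in the unnamed cluster 2 (led by Ccl17, Cd209a and Mgl2), 4730 in CD4 T-like, 3874 in cDC1-like, 2973 in CD8 T-like, 2810 in gamma-delta T or ILC-like and 1700 in NK-like cells. Isg15 and Ifi27l2a gave 41.0% of the members' UMIs in WT macrophage-like cells and 62.7% in regulatory T-like cells. Free RNA carries the members too: barcodes with 10 to 100 UMIs, taken to hold no cell, had 5324 CPM in WT and 4691 CPM in KO, and how much of it the class levels include was not tested.

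Single members differed in where they were highest. Over the same 13 classes, 16 members were highest in WT monocyte-like cells, 13 in neutrophil-like cells, 3 in cluster 2, 2 in regulatory T-like cells, and 1 each in macrophage-like and cDC1-like cells. The first class was apart from the next beyond counting error for 22 of the 36. Neutrophil-like cells had 3181 CPM of Isg15, against 1342 in monocyte-like and 1321 in macrophage-like cells, and 1105 CPM of Rsad2, against 535 in monocyte-like cells. Monocyte-like cells led in Ifi204 (812 CPM), Zbp1 (372) and Mx1 (219). Oasl1 was highest in macrophage-like cells (364 CPM, against 310 in monocyte-like cells), Ifi205 in cDC1-like cells (829 against 392) and Ifi27l2a in regulatory T-like cells (4107 against 2820). Bst2, a marker of plasmacytoid dendritic cells in mice, reached 3469 CPM in the 39 plasmacytoid DC-like cells of WT, a class too small for these rankings; its summed level was 7138 CPM (6850 to 7434).

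**Figure D3:**
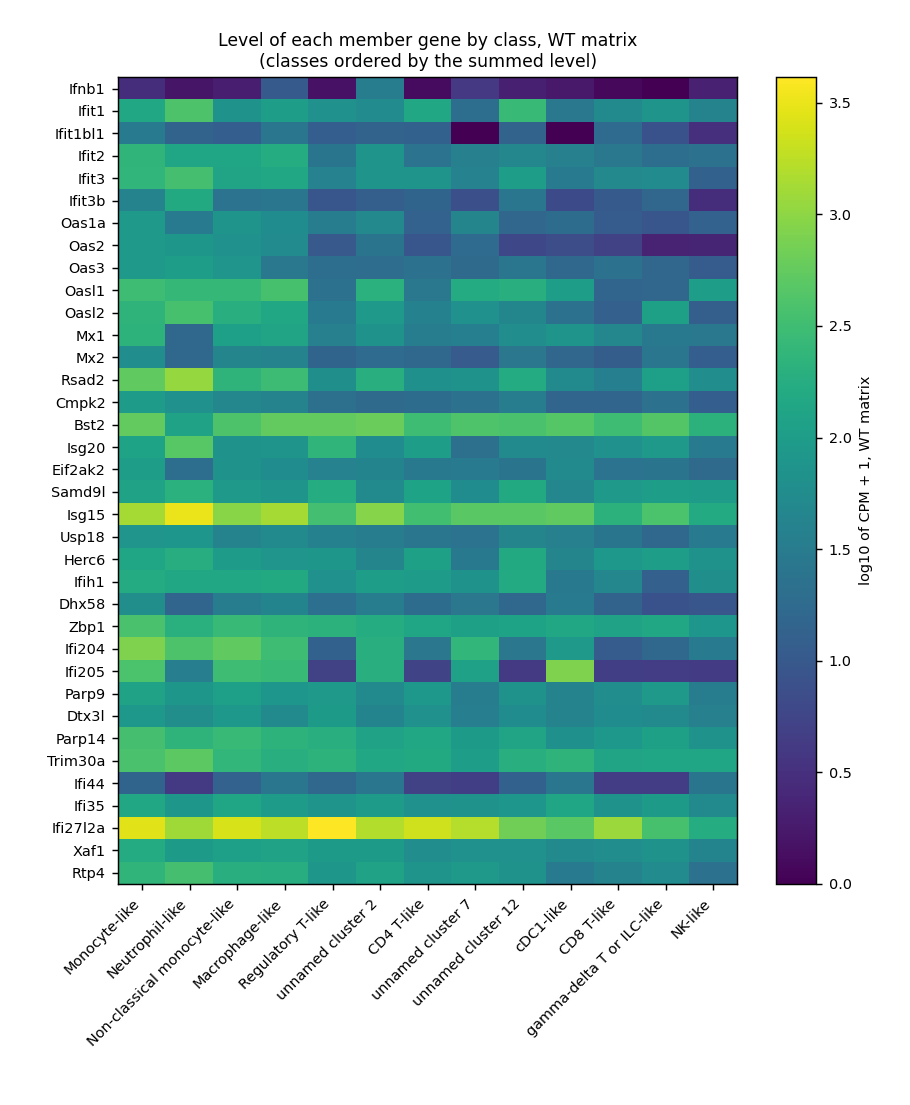
The colour gives log10 of CPM + 1 in the WT matrix for each member (rows, by role) in 13 classes (columns, by falling summed level). Isg15 is brightest in neutrophil-like cells (3181 CPM), Ifi27l2a in regulatory T-like cells (4107 CPM) and Ifi205 in cDC1-like cells (829 CPM).

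Between the genotypes the summed level was lower in KO in 8 of these 13 classes, higher in 3, and within counting error in 2; with 1 matrix per genotype this has no replicate check. It went from 10965 to 10025 CPM in monocyte-like cells (ratio 0.914, 0.901 to 0.927), from 8101 to 7004 in non-classical monocyte-like cells (0.865) and from 7559 to 6676 in macrophage-like cells (0.883, 0.876 to 0.890). The lowest ratios were in CD8 T-like (0.756), NK-like (0.773) and cluster 12 cells (0.775, led by Klra6, Sidt1 and Xcl1). The NK-like class joined clusters 9 (0.774), 17 (0.685) and 21 (0.970, 0.927 to 1.016), the last within counting error. The CD8 T-like class joined clusters 10 (0.683) and 13 (0.876). Regulatory T-like (1.10), gamma-delta T or ILC-like (1.07) and neutrophil-like cells (1.02) were higher in KO. The free RNA level given above was lower in KO as well.

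**Figure D4:**
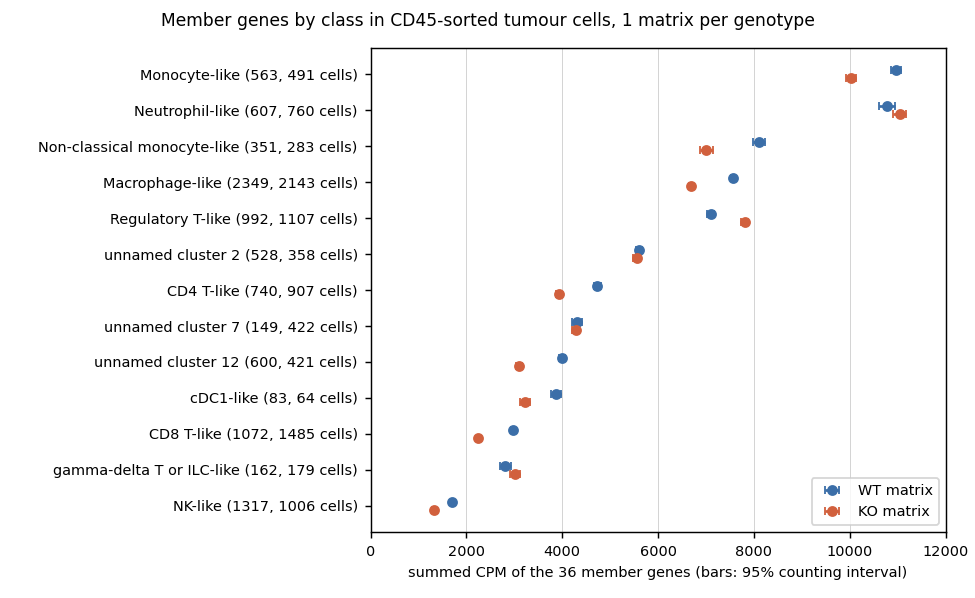
Points give the summed CPM of the 36 members in each class and genotype, with 95% counting intervals, and the cell numbers stand beside each class (WT, then KO). KO lies below WT in 8 of 13 classes, among them monocyte-like (10025 against 10965) and macrophage-like cells (6676 against 7559).

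The macrophage-like class joined 3 clusters, and its makeup differed between the matrices. Cluster 1, with Osm, Rhov and Cxcl11 among its leading genes, held 84.5% of the class in WT and 75.2% in KO. There the members stood at 8230 and 8007 CPM (ratio 0.973, 0.964 to 0.982). Cluster 5, led by Vcam1 and Cadm1 and high in C1qa, stood at 5407 and 5010 CPM (0.927). Cluster 14, led by Ccl12, Cd63 and Ccl8, stood at 5223 and 3770 CPM (0.722, 0.677 to 0.770) with a median depth of 2390 UMIs. Each cluster was lower in KO, and the largest one by less than the class as a whole. Cluster 7, led by Pf4, Arg1 and Nos2, scored highest for macrophage (1.24) but was not named, since its leading genes held more monocyte markers. It is left out of the macrophage-like values and stood at 4307 and 4278 CPM (0.993).

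In macrophage-like cells the members gave a median of 0.584% of a WT cell's UMIs and 0.535% of a KO cell's, while the upper 10% of cells lay above 1.94% and 1.63%. When the members and the other listed interferon genes were also allowed to shape the clusters, 598 cells formed a cluster of their own. It had 24528 CPM, against 10870 in the next highest cluster. Outside the listed interferon genes it was led by Cxcl11, Slfn4 and Phf11d, and 82.1% of its cells came from the macrophage-like class and 11.0% from the monocyte-like class. That level is what set the cells apart and is given as a description.

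Few single members passed 1.5-fold in macrophage-like cells, as did few of all genes there. Of 35 members with at least 100 UMIs and 20 CPM in 1 matrix, none was 1.5-fold higher in KO and 1 was 1.5-fold lower, with a pseudocount of 5 CPM (3.0% and 1.34% of all such genes), and the ratio was above 1 for 10. The median log2 ratio was -0.14, against 0.07 over all genes. Lowest were Ifit3b (25 to 13.8 CPM), Ifit1bl1 (25.4 to 16.3), Isg20 (72.1 to 48.8) and Oas2 (54.9 to 38.1). Highest were Dtx3l (52.0 to 72.7 CPM), Ifi44 (25.1 to 30.2), Ifit1 (104 to 122) and Ifi204 (305 to 357). In monocyte-like cells 0 of 34 were 1.5-fold higher and 4 were 1.5-fold lower (2.53% and 2.62% of all such genes): Ifit1bl1 (31.2 to 13.6 CPM), Rsad2 (535 to 327), Isg20 (124 to 78.2) and Mx1 (219 to 143). Ifi205 (392 to 515) and Zbp1 (372 to 471) had the highest ratios there. Neutrophil-like cells had 4 of 30 members 1.5-fold higher and none lower (6.34% and 5.01% of all such genes): Eif2ak2 (19.3 to 37.7 CPM), Xaf1 (91.3 to 167), Zbp1 (194 to 347) and Ifi204 (406 to 646). Regulatory T-like cells had 1 of 27 higher and none lower (0.875% and 1.2%), again Eif2ak2 (38.4 to 63.0 CPM).

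The lymphoid classes and the unnamed clusters differed from these in part. In CD8 T-like cells none of 23 members was 1.5-fold higher and 3 were lower (1.37% and 1.99% of all such genes): Ifit3 (49.5 to 29.6 CPM), Oas3 (22.2 to 13.4) and Ifit2 (27.3 to 16.7). In NK-like cells none of 24 was higher and 5 were lower (0.538% and 1.61%), with Ifih1 (62.1 to 27.4 CPM) and Oasl1 (101 to 57.5) among them. In cluster 12 none of 29 was higher and 9 were lower (0.75% and 2.58%), among them Herc6 (157 to 81.7 CPM) and Ifih1 (162 to 101). In cluster 7, which held 149 WT and 422 KO cells, 3 of 29 were higher and none lower (7.42% and 1.76%): Ifit1 (19.5 to 74.6 CPM), Rsad2 (72 to 209) and Ifi205 (115 to 184). The T and NK markers rose too in cluster 7, from 135 to 1000 CPM (4 of 4 with enough UMIs past 1.5-fold). They also rose in macrophage-like (470 to 628 CPM) and monocyte-like cells (232 to 333 CPM), where the summed member level was lower in KO. The part of these markers was not tested. The kinase gene Eif2ak2 had the highest ratio of the members with enough UMIs in CD8 T-like (1.44), NK-like (1.63) and cluster 12 cells (1.39), as plain ratios of CPM without the pseudocount.

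The bulk and single cell directions were set side by side. Of the 12 members that rose in macrophage RNA, 8 had a ratio above 1 in macrophage-like cells, among them Dtx3l, Ifi204, Zbp1 and Ifi44. The interval lay wholly above 1 for 4 of the 12 and wholly below 1 for 3. Parp14, at 1.42-fold in bulk, had a log2 ratio of 0.01. Of the 10 that fell, 9 had enough UMIs, and of these 7 were below 1 with an interval that left out 1. Isg15 went from 1321 to 1147 CPM (0.869, 0.852 to 0.885) and Ifi27l2a from 1776 to 1367 (0.770). The other 2 were Ifit1 (ratio 1.18) and Rsad2 (1.01). Within the class, Isg15 was slightly higher in KO in cluster 1 (1491 to 1526 CPM). It was lower in KO in clusters 5 (790 to 668 CPM) and 14 (555 to 379 CPM). How much of the fall of Isg15 came from the makeup of the class was not tested. All 14 members that were not called in bulk were below 1. In monocyte-like cells 6 of 11 bulk risers were above 1 and 8 of 9 bulk fallers below it. There the interval lay wholly above 1 for 2 risers and wholly below 1 for 3 risers and 7 fallers. The GTPases were higher in KO in both classes, at 995 and 1727 CPM in macrophage-like cells (7 of 13 past 1.5-fold) and 1346 and 2698 CPM in monocyte-like cells (9 of 14), as in macrophage RNA.

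**Figure D5:**
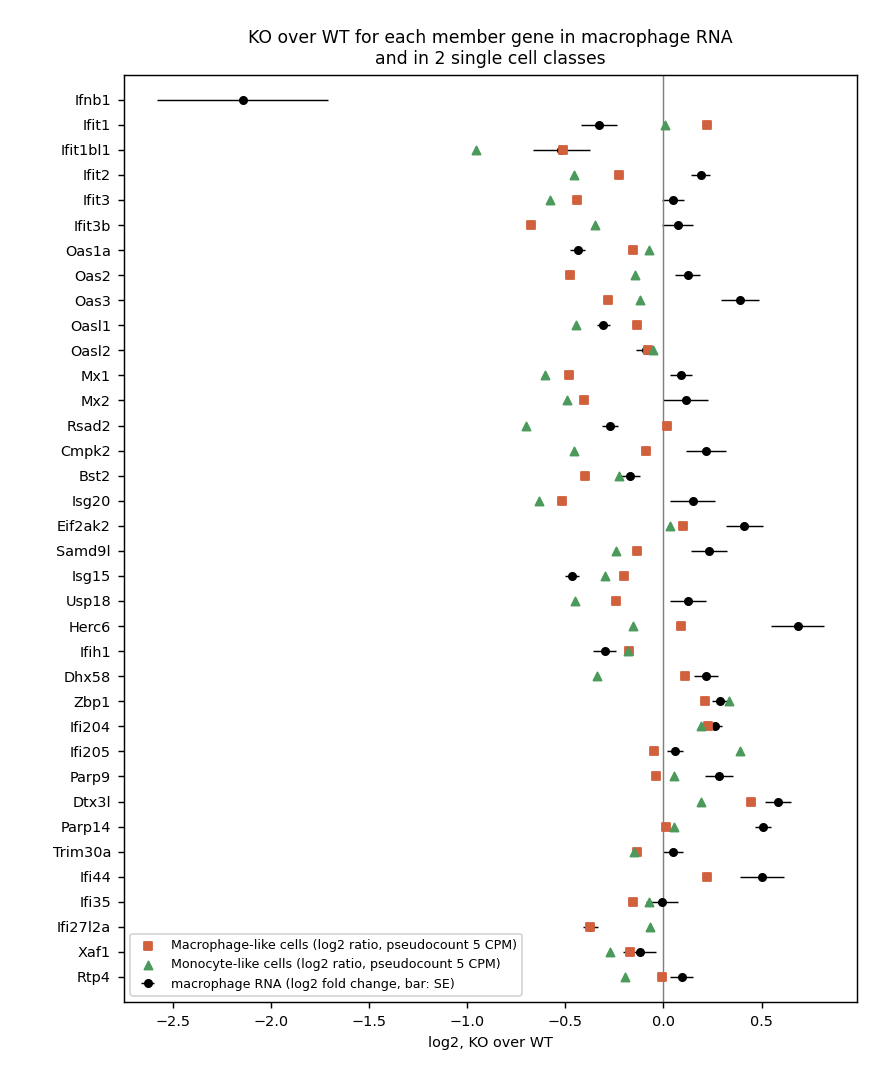
For each member the log2 fold change of KO over WT in macrophage RNA (black, with SE) stands beside the log2 ratio in macrophage-like (squares) and monocyte-like cells (triangles), drawn where the gene had enough UMIs. Isg15, Ifi27l2a and Oas1a lie left of 0 in all 3 and Dtx3l, Zbp1 and Ifi204 right of it, while Ifit1, at 1.18 in macrophage-like cells, differs in side from the bulk value.

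Ifnb1 was found in few cells. In WT 67 of 9712 cells had an Ifnb1 UMI (0.690%, exact interval 0.535 to 0.875%) and in KO 63 of 9767 (0.645%, 0.496 to 0.825%), for 384 and 313 UMIs. The RNA was concentrated: the 5 highest cells held 49.2% of the WT UMIs and 34.2% of the KO UMIs, and 1 WT cell held 78. Macrophage-like cells had 28 positive cells of 2349 in WT (1.19%) and 35 of 2143 in KO (1.63%), against 0.187% and 0.202% in CD8 T-like cells, which should lack it (median depths 5433 and 5933 UMIs, and 7984 and 7647). Its level in macrophage-like cells was 9.70 CPM in WT and 10.7 CPM in KO (ratio 1.10, 0.890 to 1.37). The fall seen in macrophage RNA was thus not seen in the class as a whole. Within the class, Ifnb1 was lower in KO in cluster 1 (7.90 to 3.15 CPM) and higher in cluster 5 (16.9 to 22.2 CPM). Cluster 14 had 0 CPM in both matrices. The part of the class makeup in the pooled level was not tested. In cluster 2 the WT share of positive cells was 2.46% (13 of 528, 1.32 to 4.17%). The KO share was 2.23% (8 of 358, 0.970 to 4.36%), and the intervals overlapped. These cells held 180 and 42 UMIs, or 32.0 and 11.5 CPM; each level rests on these few cells. Ifng stood at 10263 UMIs in WT and 13004 in KO, most often in CD8 T-like cells.

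Peaks of EGR2, a zinc finger factor profiled by CUT&Tag in the same macrophages, were counted near the members. The counts are small and were not tested. The deposited lists, 1 per genotype for EGR2 and 1 merged list for ATAC, each stand for several samples, so replicates could not be compared. A peak was counted where any part of it lay within 10 kb of the gene start, and distances are given from its centre. Such a peak was found for 1 of 36 members in the WT list (2.78%, against 8.32% of tested genes). In the KO list it was found for 2 (5.56%, against 6.95%), and no member had a peak present in both lists (0.804% of genes). The WT peak lay 942 bases upstream of Oas2 (mm10 chr5:120750545-120751045) with a score in the 91.1 percentile of its list. The KO peaks lay 7950 bases upstream of Oasl1 (chr5:114915040-114915540) and 6739 bases upstream of Ifi27l2a (chr12:103450169-103450669). Open chromatin was more common: in the merged ATAC list 16 of 36 members (44.4%, against 34.9% of genes) had a region within 10 kb, the highest scoring of them upstream of Oas2 (chr5:120751044-120751544, 99.6 percentile) and the next 5096 bases upstream of Ifi35 (chr11:101443061-101443561, 96.4 percentile). These scores are the authors' and rank regions within a list only. Oas2 was thus the member with both an EGR2 peak and an ATAC region within 2 kb, and it was not called in macrophage RNA (85.5 ± 2.45 CPM in WT and 93 ± 4.59 CPM in KO, adjusted p = 0.126).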

How the data were processed

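Raw counts per gene were deposited by the authors for each macrophage RNA library, which came, per the file headers, from featureCounts 2.0.6 with gene models of GENCODE vM10; each read of a pair was counted, strand was ignored and multi-mapped reads were left out. The authors deposited UMI counts of every barcode, made by Cell Ranger 8.0.1 as their header states. Each 501 bp region of the deposited peak lists has a score, 1 list per EGR2 genotype and 1 merged ATAC list; the caller is not given in the sources used here, and the build is mm10 per the submitters' processing notes. H3K27ac, H3K4me1 and EGR2 ChIP data were not used here.

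Genes were tested with edgeR 4.0.16 (quasi-likelihood, filterByExpr, TMM, 2-sided) in R 4.3.3, KO against WT, and adjusted over all genes tested; DESeq2 1.42.0 was an alternative. CPM are TMM-scaled. Symbols were found for 48058 of 48440 identifiers (99.2%). The test was also run on simulated counts with means and dispersions taken from these libraries, and its outcome is not given here. Total counts ran from 7032540 to 32406170 per library.

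Barcodes under 500 genes or 1000 UMIs, or over 10% mitochondrial UMIs, were dropped, as were Scrublet doublets (4.91% in WT, 3.16% in KO). Leiden clusters (scanpy 1.11.5) used 2000 variable genes, 30 components, 15 neighbours and a resolution of 1. A cluster was named where at least 3 markers of the class were in at least 20% of its cells and its score led by at least 0.1. Folds used a pseudocount of 5 CPM. The labels list 2 single cell samples per genotype, but 1 matrix per genotype was used.

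All 36 members are accounted for. Values per library are given for the 12 members with the smallest adjusted p, which include Isg15 and Ifnb1, and up to 4 called genes are named per pathway list. The members and lists were chosen with earlier results of these data known. Promoter windows are from RefSeq (GRCm38.p6); 76.4% of 19538 genes compared began within 100 bp of the count table's start.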

Additional observations from a re-analysis of the deposited data

Results flagged for a closer look

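The summed member level differed in direction between classes: the KO to WT ratio was 1.10 in regulatory T-like and 1.02 in neutrophil-like cells, and below 1 in macrophage-like, monocyte-like, CD4 T-like, CD8 T-like and NK-like cells. The difference between the classes was not tested, since there is 1 matrix per genotype.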

How the results depend on the processing

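In macrophage RNA the counts of 12 members higher and 10 lower stayed within 11 to 12 and 9 to 10 when single libraries were left out, with medians of 0.075 to 0.094. Library totals alone gave 19 higher and a median of 0.18. Of 432 member values under alternatives, 412 kept direction and side of the threshold. The reversed ones were near 0: Trim30a without WT replicate 2 (-0.0025; single libraries left out gave -0.0025 to 0.077), and Ifi35 with library totals alone (0.079), with no filter on low counts (0.0040) and without WT replicate 1, WT replicate 3 or KO replicate 3 (0.0050, 0.018 and 0.043; single libraries left out gave -0.049 to 0.043). The cause was not tested. Same-numbered libraries did not deviate together (correlations -0.0048, 0.0019 and 0.011); with the replicate number as a block, 12 members were again higher and 10 lower (median 0.092), and 4697 genes were called against 4867.

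In single cells the ratio of the summed level in macrophage-like cells was 0.899 at resolution 2, 0.874 with all variable genes, 0.813 with the stricter and 0.915 with the looser cell filter; the name then covered fewer cells, with 432 WT and 482 KO cells under all variable genes and 347 and 402 under the stricter filter, against 2349 and 2143. In monocyte-like cells it was 0.970 with all variable genes and 0.879 with the looser filter, and over all cells 0.913 with the stricter filter. Without Isg15 and Ifi27l2a, a choice made after seeing the data, it was 0.933 in macrophage-like and 0.928 in all cells, cluster 7 moved from 0.993 to 1.18, and the gamma-delta T or ILC-like ratio fell to 1.04 (0.975 to 1.11), no longer apart from 1. Members past 1.5-fold in macrophage-like cells were 3 higher and 2 lower with all variable genes, 1 higher and 5 lower with the stricter filter, and 2 or 0 lower with a pseudocount of 1 or 20 CPM.

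Within 50 kb, 5 members had an EGR2 peak in the WT list (13.9%, against 29.1% of genes), 13 in the KO list (36.1% against 25.7%) and 27 an ATAC region (75.0% against 72.4%). Within 2 kb the WT list gave 1 (2.78% against 2.01% of genes), the KO list 0 (1.51%) and ATAC 5 (13.9% against 12.7%). The upper part of the lists by score gave 1 in the WT list (2.78% against 4.79%), 1 in the KO list (2.78% against 3.7%) and 10 in ATAC (27.8% against 24.4%). Low counts limit the precision of genes such as Ifnb1.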
